A study of Homo sapiens with 12 samples.

Results

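The genes described here are 10 immediate early genes, FOS, FOSB, JUN, EGR1, IER2, IER3, ATF3, MYC, KLF4 and KLF6, in ovarian cancer cells exposed to ascites. They were chosen by name, through their Ensembl identifiers, and all 10 were present among the 19251 genes listed for every library. The choice was made with earlier results of these data known. RNA sequencing had been done on 12 libraries of 2 established ovarian cancer lines, with 3 libraries in each of 4 groups. CAOV3 is labelled as an epithelial line of high grade serous type and TOV21G as an epithelial line of clear cell type, both with an unmodified genotype. Each culture began as 250000 cells in DMEM (1.5 mL) with 10% serum and antibiotics. The ascites groups received 150 µL of ascites, the fluid that gathers in the abdomen in ovarian cancer, which made 10% of the medium, for 16 h. The control groups are labelled as untreated, and no vehicle for them is described. Serum was thus present in all 4 groups, and the only time sampled after ascites was 16 h. The labels do not say whether the 3 libraries of a group came from separate cultures, so the p-values measure the spread between these libraries, which may be technical.

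Immediate early genes are transcribed within minutes of a growth factor, cytokine or stress signal, without new protein synthesis, through factors such as SRF, the ETS-family partners of SRF, and CREB that already sit at their promoters. Their mRNAs are short-lived, many of them through AU-rich elements bound by decay factors, so a pulse of transcription is usually over within hours. FOS, FOSB, JUN and ATF3 are bZIP proteins, most of which act as pairs in the AP-1 complex, and EGR1 is a zinc finger factor that binds GC-rich sites. MYC with its partner MAX drives growth and ribosome genes, and KLF4 and KLF6 are Krüppel-like zinc finger factors of epithelial cells. IER2 is a nuclear early response protein, and IER3 is a stress and survival protein that is not itself a transcription factor.

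Promoter windows from RefSeq (GRCh38.p14), each running from 250 bases before to 50 bases after a transcription start, matched 8 of the 10 genes and gave 9 windows, since ATF3 had 2. Sequences of 5 genes are printed: EGR1, FOS and FOSB hold serum-response or cAMP-response type elements through which this gene class is known to be switched on, and ATF3 and KLF6 hold an AP-1 and ATF type element. Only stretches upstream of the GENCODE exons are shown, read 5′ to 3′ on the gene's own strand. Capitals mark matches, on either strand, to a CArG box (the SRF site), TGACGT (the core of the CREB and ATF site), TGACATCA (an AP-1 and ATF site), GCGNGGGCG (the EGR1 site) or TATAAA.
EGR1, chr5:138465229-138465478, plus strand: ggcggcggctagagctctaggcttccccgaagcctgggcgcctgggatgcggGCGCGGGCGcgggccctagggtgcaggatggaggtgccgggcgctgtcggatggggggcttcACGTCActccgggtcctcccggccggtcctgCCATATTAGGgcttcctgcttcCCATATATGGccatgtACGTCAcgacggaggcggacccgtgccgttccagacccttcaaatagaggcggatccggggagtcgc
FOS, chr14:75278578-75278773, plus strand: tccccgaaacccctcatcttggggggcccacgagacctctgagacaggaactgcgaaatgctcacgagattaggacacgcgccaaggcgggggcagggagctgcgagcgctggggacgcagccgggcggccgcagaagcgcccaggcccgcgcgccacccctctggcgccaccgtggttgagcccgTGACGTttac
FOSB, chr19:45467746-45467994, plus strand: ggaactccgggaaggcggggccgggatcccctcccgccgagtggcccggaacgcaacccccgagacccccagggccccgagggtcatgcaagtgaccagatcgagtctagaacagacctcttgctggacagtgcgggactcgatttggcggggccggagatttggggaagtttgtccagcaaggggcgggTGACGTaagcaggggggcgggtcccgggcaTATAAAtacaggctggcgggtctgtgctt
ATF3, chr1:212565157-212565333, plus strand: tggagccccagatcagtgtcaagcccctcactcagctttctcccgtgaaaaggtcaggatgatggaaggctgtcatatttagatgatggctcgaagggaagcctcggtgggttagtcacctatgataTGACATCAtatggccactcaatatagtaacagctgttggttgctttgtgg
KLF6, chr10:3785282-3785459, minus strand: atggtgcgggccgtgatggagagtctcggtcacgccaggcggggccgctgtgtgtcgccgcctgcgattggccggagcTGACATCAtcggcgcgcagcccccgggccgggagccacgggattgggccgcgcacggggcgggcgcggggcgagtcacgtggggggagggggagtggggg
The EGR1 sequence held 2 CArG boxes, which began at -105 and -83 relative to the start, and 2 matches to TGACGT. Of 35116 windows of this length in the RefSeq table, 1.29% held a CArG box and 7.98% held TGACGT. FOS and FOSB each held TGACGT, at -64 and -60. Both also held TATAAA, at -33 and -30, as did 11.5% of all windows; the FOS match lies outside the stretch printed. TGACATCA was found in the windows of ATF3, JUN and KLF6 and in 2.61% of all windows. GCGNGGGCG was found in those of EGR1, KLF4 and KLF6 and in 9.43% of all windows. These are matches of letters, and occupancy of the sites was not measured.

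Expression is given as the normalised read count deposited by the authors, which is the number of reads of a gene over the size factor of its library. The recovered reads totalled 26697609 to 34491304 per library. In TOV21G, control replicate 1 and ascites replicate 2 stood apart from the other libraries of their groups. On the main axis of variation within groups, which carried 44.5% of that variance in TOV21G, these libraries scored -32.05 and -25.92, and the other 4 scored between 3.758 and 28.29. The nuclear transcript KCNQ1OT1 measured 95.4 in control replicate 1 and 235 in ascites replicate 2. It measured 656 and 234 in the other TOV21G controls and 731 and 1511 in the other ascites libraries. What sets these libraries apart was not tested, and the calls among the 10 genes and the counts of called pathway genes that changed without them are given both ways. The labelled types were checked on marker genes. All 7 epithelial keratin and adhesion markers had a mean of at least 10 normalised counts in every group. Their summed level was 156825 to 158112 in CAOV3 controls and 181243 to 191764 in CAOV3 ascites. In TOV21G it was 11325 to 12783 in controls and 10723 to 12316 in ascites. CDH1 and CLDN4 were low in TOV21G. CDH1 had means of 13.3 in TOV21G controls and 11.4 in TOV21G ascites, against 425 and 272 in CAOV3. CLDN4 had means of 30.1 and 23.6 in TOV21G, against 3853 and 4249 in CAOV3. PAX8, a defining marker of high grade serous cells that clear cell tumours can share, had a mean of 19.1 in CAOV3 controls and 7032 in TOV21G controls, so it was nearly absent from the line labelled serous. Of 10 leukocyte markers only CD14, LYZ and ITGAM were listed. Their summed level was 123 to 144 in CAOV3 controls and 104 to 135 in CAOV3 ascites, and 41.9 to 64.0 and 61.9 to 65.4 in the corresponding TOV21G groups. The other 7 leukocyte markers, PTPRC among them, and the 4 erythroid markers were not analysed here. The summed level of 8 listed mesothelial and fibroblast markers, of 9, was 4675 to 5413 in CAOV3 controls and 4267 to 4490.3 in CAOV3 ascites. In TOV21G it was 12637 to 13195 in controls and 11382 to 11785 in ascites. Different genes made up most of these sums in the lines. COL1A2 had a mean of 2.46 in CAOV3 controls and 10854 in TOV21G controls. LUM went the other way, with 4196 and 0, as did COL3A1, with 424 and 0. The part of these marker levels in the results below was not tested.

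Untreated CAOV3 and TOV21G cells differed at every one of the 10 genes. MYC, IER3, KLF6 and JUN were higher in TOV21G, and KLF4, ATF3, FOSB, FOS, EGR1 and IER2 were lower. In the limma fit over all genes, all 10 were called at an adjusted p under 0.05, 4 higher and 6 lower, but so were 82.2% of all tested genes, 40.8% higher and 41.4% lower, so the count is near the background between these lines. In these bulk samples, fewer cells with a transcript and less of it in each cell cannot be told apart. The median size of the log2 difference was 1.69 over the 10 genes and 0.81 over all tested genes.

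MYC (ENSG00000136997, chromosome 8, 127735434 to 127741434) showed the widest gap among the genes higher in TOV21G. The normalised counts were 191, 169 and 199.9 in the CAOV3 controls and 2956, 2429 and 2652 in the TOV21G controls. Every TOV21G library was far above every CAOV3 library, by 14.4-fold on the means (log2 difference 3.84 ± 0.08 SE; limma adjusted p = 5.9e-14). IER3 (ENSG00000137331, chromosome 6, 30743199 to 30744554, minus strand) measured 2451, 2388 and 2345 in CAOV3 controls and 9892, 8432 and 8978 in TOV21G controls. Its TOV21G mean was 3.80-fold higher, and an antisense gene, IER3-AS1, overlaps it, so reads of the pair may not be separated. KLF6 (ENSG00000067082, chromosome 10, 3775996 to 3785281, minus strand), which restrains the growth of epithelial cells, measured 3827, 3869 and 4092 against 8961, 7985 and 8469, a 2.16-fold difference. JUN (ENSG00000177606, chromosome 1, 58780788 to 58784327, minus strand), the main partner of FOS in AP-1, measured 1136, 1115 and 1092 against 1704, 1540.1 and 1497. Its groups did not overlap either, although the difference was the smallest of the 10, at 1.42-fold (log2 0.50 ± 0.05 SE; limma adjusted p = 5.2e-07).

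KLF4, an epithelial differentiation factor, had the widest gap of all 10 genes, in the other direction. KLF4 (ENSG00000136826, chromosome 9, 107484852 to 107490482, minus strand) measured 1287, 1312 and 1279 in CAOV3 controls and 81.3, 60.8 and 58.3 in TOV21G controls. The CAOV3 mean was 19.3-fold higher (log2 difference -4.27 ± 0.16 SE for TOV21G against CAOV3; limma adjusted p = 1.41e-11). ATF3 (ENSG00000162772, chromosome 1, 212565334 to 212620777), a stress-induced bZIP repressor, measured 146, 130.2 and 137 against 18.4, 14.7 and 11.7, with a mean 9.23-fold higher in CAOV3. FOSB (ENSG00000125740, chromosome 19, 45467995 to 45475179), an AP-1 subunit, measured 145, 120.5 and 107 against 19.5, 19.9 and 15.3, a 6.81-fold difference of the means, with ERCC1 annotated on the opposite strand of its locus. FOS (ENSG00000170345, chromosome 14, 75278774 to 75282230), the AP-1 subunit that cannot bind DNA without a JUN partner, measured 68.1, 77.4 and 49.5 against 24.9, 22.0 and 21.5 in TOV21G. The FOS groups did not overlap and their means stood 2.85-fold apart, but the TOV21G controls rest on 21 to 24 reads each. EGR1 (ENSG00000120738, chromosome 5, 138465490 to 138469315) measured 387, 373 and 409.7 in CAOV3 controls and 189.7, 157 and 166 in TOV21G controls, 2.28-fold apart. IER2 (ENSG00000160888, chromosome 19, 13150415 to 13154908) measured 4759.8, 4595 and 4320.0 against 2942, 2686 and 2854, 1.61-fold apart. A gene on the other strand, AC011446.2, overlaps IER2.

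**Figure D1:**
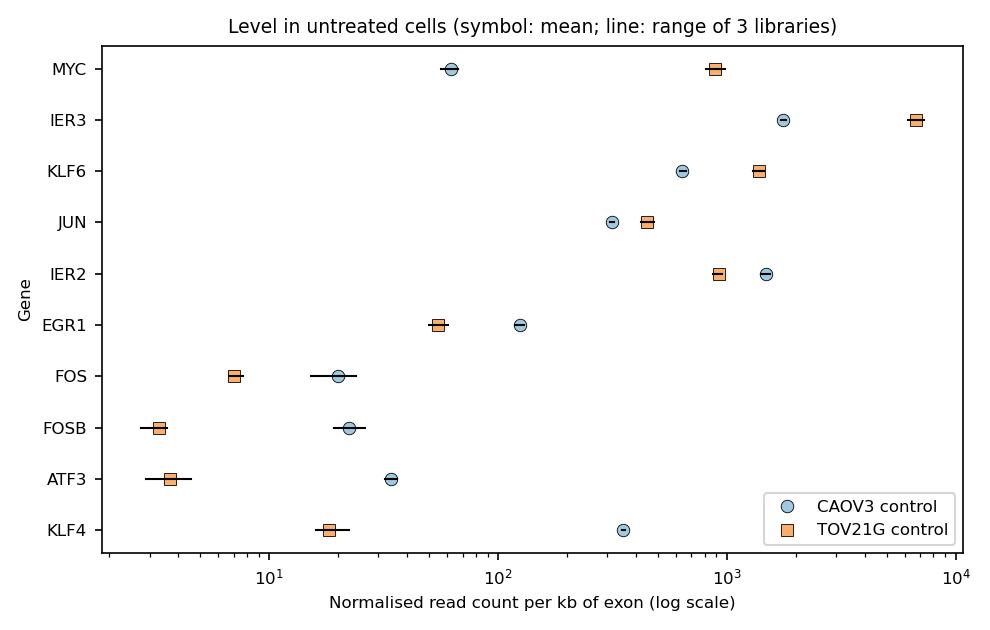
Level of each gene in untreated cells as the normalised read count per kb of exon, on a log axis. Symbols are the means of 3 libraries (circles CAOV3, squares TOV21G) and lines run from the lowest to the highest library. MYC and KLF4 lie farthest apart between the lines, in opposite directions, and JUN and IER2 are closest.

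Levels can be ordered between genes only per length of transcript, so counts were divided by the exon length in GENCODE release 29. In CAOV3 controls IER3 led with 1766 normalised counts per kb, before IER2 with 1484 and KLF6 with 640.1. KLF4 at 353 and JUN at 315 per kb came next, followed by EGR1 at 124, MYC at 62.1 and ATF3 at 34.1. FOSB at 22.4 and FOS at 20.1 per kb closed the order, and among these neighbours only FOSB and FOS overlapped in range. In TOV21G controls IER3 led more widely, with 6711 normalised counts per kb, and KLF6 was second with 1380.0. IER2 at 920.3 and MYC at 893 per kb overlapped in range, and JUN followed with 446 and EGR1 with 54.5. KLF4 had 18.3 per kb there and FOS 7.05, and the lowest places were shared by ATF3 at 3.69 and FOSB at 3.28, whose ranges overlapped. The exposed cells kept nearly this order: in CAOV3 ascites FOS (26.5 per kb) stood above FOSB (21.6), and in TOV21G ascites MYC (885) and IER2 (770.1) exchanged places, as did FOSB (4.36) and ATF3 (3.96), with ranges that still overlapped.

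In CAOV3, 16 h of ascites was accompanied by small differences at several of the 10 genes, none of which passed the test over all genes. FOS, JUN, IER2, IER3, KLF4 and KLF6 were higher in all 3 ascites libraries than in all 3 controls, and EGR1 was lower in all 3. The limma fit called 0 of the 10 genes, against 1.73% of all tested genes, and edgeR and DESeq2 on the recovered reads called 0 as well, against 2.9% and 2.88% of all tested genes. At an unadjusted p under 0.05 there were 4 of the 10 (FOS, JUN, EGR1 and IER3), against 12.9% of all tested genes. The groups did not overlap for 7 of the 10, against 24.2% of all tested genes. Of these, 6 were higher (background 11.4%) and 1 was lower (background 12.8%). Since the genes were chosen with earlier results of these data known, these counts and shares are given as a description. The median log2 fold change was 0.12 over the 10 genes, of which 8 were positive, and -0.00 over all tested genes, of which 47.7% were positive.

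**Figure D2:**
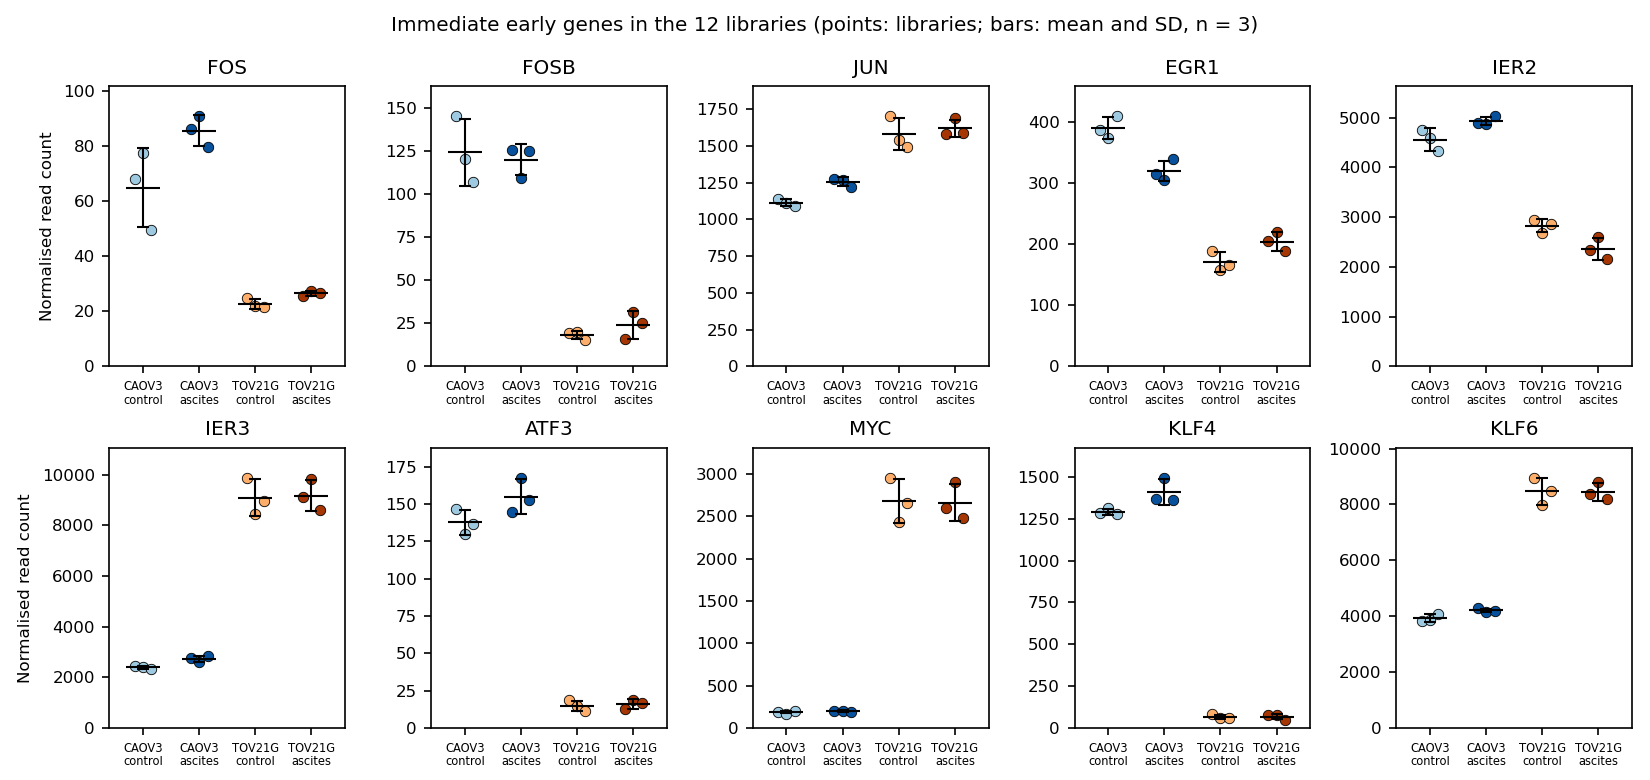
Normalised read count of the 10 genes in each of the 12 libraries, by group, with a separate linear axis from 0 for each gene. Points are libraries, and bars show the mean and SD of 3. The differences between the lines exceed those between ascites and control within a line at every gene, and within CAOV3 the EGR1 ascites libraries lie below the controls while those of FOS, JUN, IER2, IER3, KLF4 and KLF6 lie above.

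Among the AP-1 genes, FOS measured 68.1, 77.4 and 49.5 in the CAOV3 controls and 86.4, 91.0 and 79.8 after ascites. All ascites libraries were above all controls, but the controls spread widely, and the log2 fold change of 0.42 (95% confidence interval 0.03 to 0.81) had a limma adjusted p of 0.348. JUN measured 1136, 1115 and 1092 in controls and 1278, 1271 and 1221 after ascites. Its groups were tight and separate, with a log2 fold change of 0.17 ± 0.05 (SE; limma adjusted p = 0.133). JUN was also the member with the lowest unadjusted p in this line, 0.00457 in limma. FOSB measured 145, 120.5 and 107 in controls and 126, 109 and 125 after ascites, and these groups overlapped fully (log2 -0.04, interval -0.54 to 0.46). ATF3 measured 146, 130.2 and 137 against 144, 168 and 152, also with overlap (log2 0.17, interval -0.25 to 0.59).

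EGR1 differed in the other direction from FOS and JUN. It measured 387, 373 and 409.7 in the CAOV3 controls and 315, 306 and 339 after ascites. The highest exposed library was below the lowest control, and the log2 fold change was -0.29 ± 0.09 (SE, interval -0.48 to -0.09; limma adjusted p = 0.168). With edgeR the adjusted p was 0.0574 and with DESeq2 0.111.

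Of the early response proteins, IER3 measured 2451, 2388 and 2345 in controls and 2775, 2588 and 2822 after ascites in CAOV3. The groups did not overlap (log2 fold change 0.19 ± 0.06 SE; limma adjusted p = 0.186). IER2 measured 4759.8, 4595 and 4320.0 against 4894, 4872 and 5031, and here too the ascites libraries were the higher 3 (log2 0.11, interval -0.02 to 0.25; limma adjusted p = 0.467). MYC measured 191, 169 and 199.9 in controls and 200.2, 204 and 189 after ascites, with overlap (log2 0.09, interval -0.09 to 0.27). The Krüppel-like factors were both slightly higher without overlap. KLF4 measured 1287, 1312 and 1279 against 1369.6, 1497 and 1364 (log2 0.12, interval -0.22 to 0.47; limma adjusted p = 0.823). KLF6 measured 3827, 3869 and 4092 against 4282, 4160.3 and 4175 (log2 0.10 ± 0.05 SE; limma adjusted p = 0.405). The joint fit takes each gene's error from both lines together. With the TOV21G libraries that stand apart left out, a setting added after the data were seen, limma called JUN (adjusted p = 0.0212) and IER3 (adjusted p = 0.0321) in CAOV3 with the same fold changes. The share of all tested genes called with libraries left out was not counted, so these 2 calls have no background to be set against. In this setting calls also rose among other immediate early genes in CAOV3, from 3 higher and 1 lower to 8 higher and 2 lower.

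In TOV21G, the ascites libraries of 8 of the 10 genes overlapped the controls. IER2 was lower in all 3 ascites libraries, FOS was marginally higher in all 3, and EGR1 was higher on average. With limma, 0 of the 10 genes were called in TOV21G, against 0.409% of all tested genes. At an unadjusted p under 0.05 there were 2 (EGR1 and IER2), against 9.17%. The groups did not overlap for 2 genes, against 11.1% of all tested genes: FOS was higher (background 4.16%) and IER2 lower (background 6.99%). The call for IER2 depended on the method: edgeR (adjusted p = 0.0470, background 0.647%) and DESeq2 (adjusted p = 0.00543, background 0.851%) each called it and none of the other 9. The median log2 fold change was 0.03 over the 10 genes and -0.02 over all tested genes.

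IER2 measured 2942, 2686 and 2854 in the TOV21G controls and 2329.8, 2603 and 2165 after ascites. The ascites libraries were the lower 3, with a log2 fold change of -0.26 ± 0.06 (SE, interval -0.39 to -0.13) and a limma adjusted p of 0.131. Without ascites replicate 2, the highest of the 3, limma called it (log2 -0.33, adjusted p = 0.0152). Without both libraries that stand apart it was called as well (log2 -0.30, adjusted p = 0.0307). It was not called by limma with TOV21G fitted alone (adjusted p = 0.635), with a replicate block (0.476) or with TMM scaling (0.0760). EGR1 measured 189.7, 157 and 166 in controls and 205, 219 and 189 after ascites. The lowest ascites library fell just below the highest control, and the log2 fold change was 0.26 ± 0.09 (SE, interval 0.06 to 0.45; limma adjusted p = 0.402). FOS measured 24.9, 22.0 and 21.5 against 25.7, 27.4 and 26.8. The groups were separate but close, the ascites libraries held 30 to 31 reads of FOS each, and the log2 fold change of 0.22 had an interval of -0.17 to 0.61.

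FOSB varied most in the TOV21G ascites group, with a coefficient of variation of 33.4%. It measured 19.5, 19.9 and 15.3 in controls and 15.7, 31.9 and 25.1 after ascites, so 1 ascites library lay within the range of the controls and 2 lay above it (log2 0.35, interval -0.15 to 0.84). ATF3 measured 18.4, 14.7 and 11.7 against 12.4, 18.6 and 17.0, with overlap. JUN measured 1704, 1540.1 and 1497 against 1582, 1689 and 1590.2, and IER3 9892, 8432 and 8978 against 9111, 9818 and 8617. For both, the ascites libraries fell inside the range of the controls, with log2 fold changes of 0.04 and 0.01. MYC, the gene most in excess in this line, measured 2956, 2429 and 2652 in controls and 2599, 2898 and 2473 after ascites. Its log2 fold change was -0.01 (interval -0.19 to 0.17). KLF4 measured 81.3, 60.8 and 58.3 against 77.9, 76.1 and 48.3, and KLF6 8961, 7985 and 8469 against 8366, 8809 and 8179.9. Both had log2 fold changes that round to -0.00, with intervals of -0.35 to 0.35 for KLF4 and -0.10 to 0.10 for KLF6. The signs of MYC, KLF4 and KLF6 in TOV21G changed with the scaling and carry no direction.

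**Figure D3:**
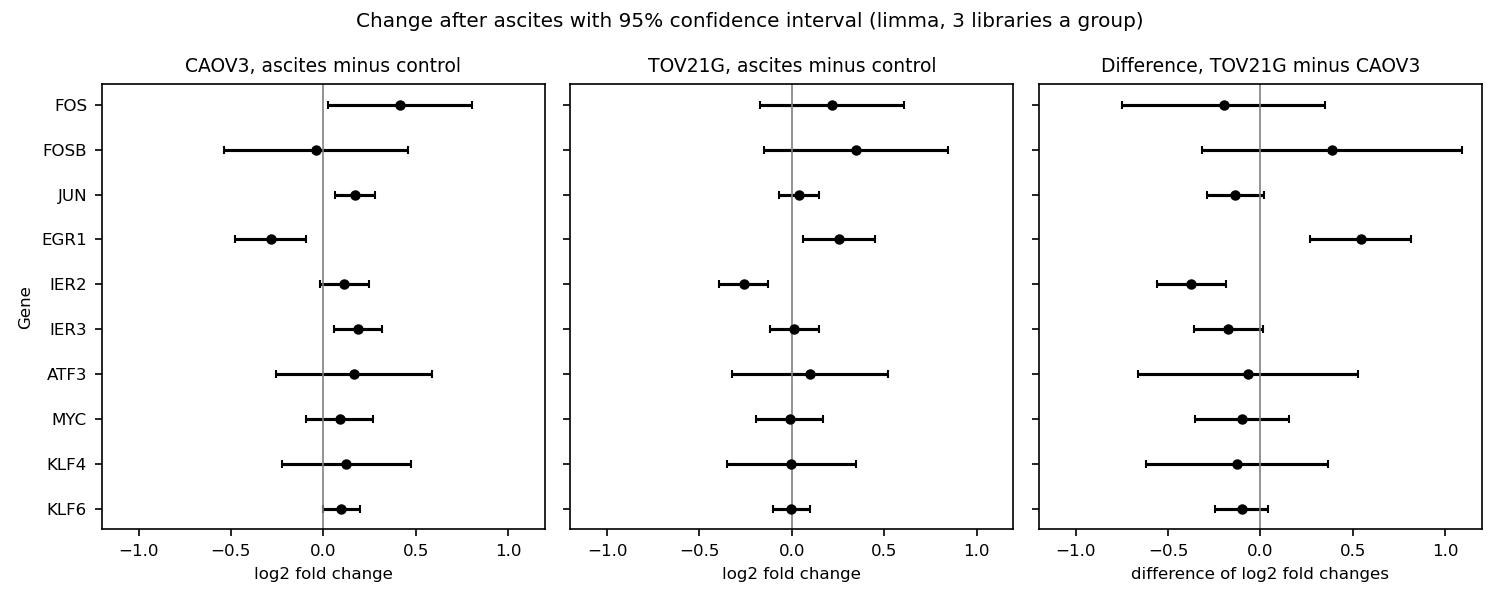
Log2 fold change of each gene after ascites in CAOV3 and in TOV21G, and the difference of these changes (TOV21G minus CAOV3), from limma. Points are estimates and lines are 95% confidence intervals. EGR1 and IER2 are the members whose interval for the difference, in the right panel, does not cross 0, on opposite sides.

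The responses of the lines were compared directly by the interaction term of the same fit. EGR1 and IER2 had the largest differences relative to their error, in opposite directions. EGR1 was lower after ascites in CAOV3 and higher in TOV21G, which gave a log2 difference of 0.54 ± 0.13 (SE, interval 0.27 to 0.82; limma adjusted p = 0.106). IER2 was higher in CAOV3 and lower in TOV21G, with a log2 difference of -0.37 ± 0.09 (SE, interval -0.56 to -0.19; limma adjusted p = 0.0975). With limma, 0 of the 10 genes were called, against 0.545% of all tested genes, and 2 had an unadjusted p under 0.05, against 11.9%. Both genes were called with edgeR (EGR1 adjusted p = 0.0254, IER2 0.0256, background 0.84%) and with DESeq2 (0.0331 and 0.00272, background 1.2%). Both were also called by limma after TMM scaling (0.0366 and 0.0436, background 0.857%). With a trend over gene length and GC content removed, limma called 1, IER2 (adjusted p = 0.0276, background 0.739%). Without the TOV21G libraries that stand apart, the limma adjusted p was 0.0187 for IER2 and 0.0511 for EGR1. For the other 8 genes the interval of the difference included 0. Those intervals ran from -0.36 to 0.01 for IER3 and from -0.29 to 0.02 for JUN, and they were widest for FOSB, from -0.32 to 1.09. A missing call at these genes therefore does not show that the lines responded alike.

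In each TOV21G group 1 library was the highest for nearly all of the 10 genes. Control replicate 1 was the highest of its group for 9 of the 10, all but FOSB, and it was the highest for 49.0% of all tested genes. Ascites replicate 2 was the highest of its group for 9 of the 10, all but KLF4, and for 48.5% of all tested genes. These are the libraries with the lowest scores on the within-group axis described above. In CAOV3 no library was the highest of its group for more than 5 of the 10 genes. In the other TOV21G libraries the deviations were mixed: in ascites replicate 1 FOSB lay -0.54 and KLF4 0.24 from the group mean on the log2 scale, and in ascites replicate 3 FOSB lay 0.10 and KLF4 -0.44 from it. The part of the within-group axis in these values was not tested.

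**Figure D4:**
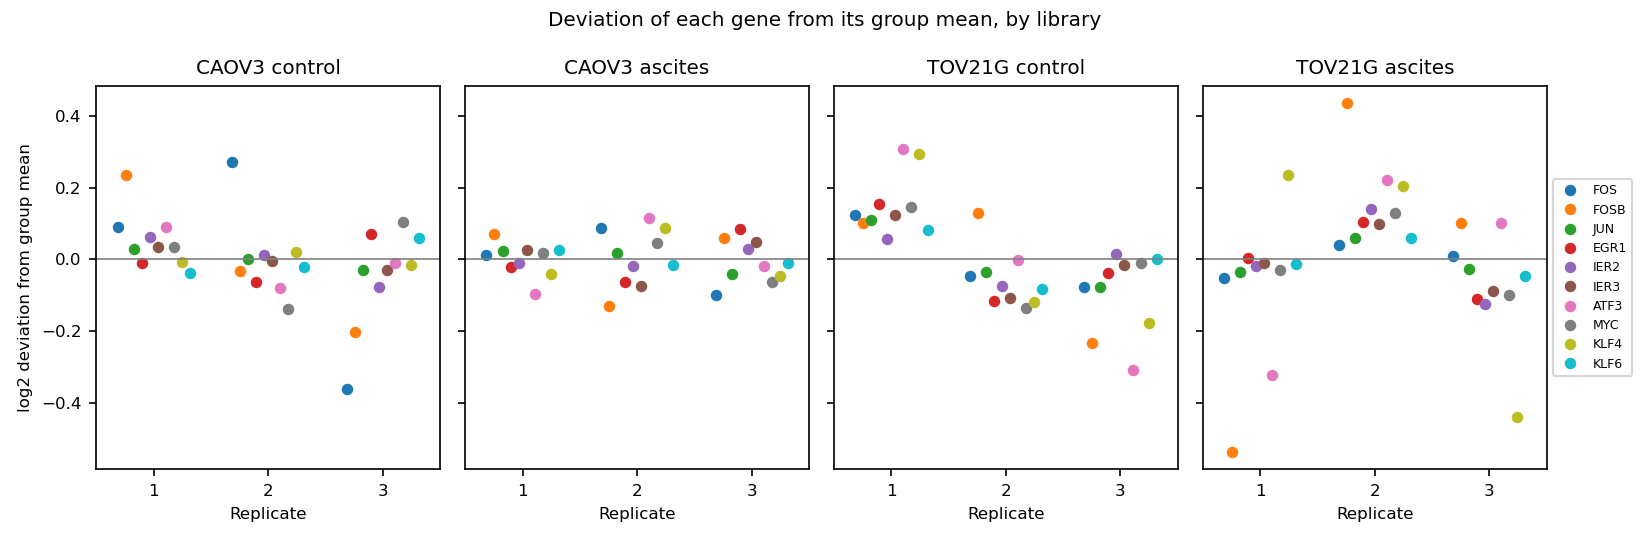
Deviation of each gene from its group mean on the log2 scale, for each replicate of the 4 groups. Each point is 1 gene in 1 library, and the line at 0 is the group mean. In TOV21G, points of control replicate 1 all lie above 0, as do those of ascites replicate 2, while CAOV3 points lie on both sides of 0 in every library.

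The other immediate early genes were taken from a list of 40, of which 39 were tested. In CAOV3, limma called 3 higher (JUNB, FOSL1 and MCL1) and 1 lower (CCN2), against 1.73% of all tested genes, with a median log2 fold change of 0.11. The count of higher genes depended on the method: it was 6 with edgeR, 7 with DESeq2 and 1 with a replicate block. Over all tested genes edgeR called 2.9% and DESeq2 2.88% in CAOV3. Without the TOV21G libraries that stand apart, limma called 8 higher and 2 lower. No share of all tested genes is given for fits with libraries left out, a replicate block or a line fitted alone. This holds for the lists below as well. JUNB, an AP-1 subunit, measured 2289, 2486 and 2137 in controls and 3257, 3065 and 3179 after ascites. It rose clear of the controls, with a log2 fold change of 0.46 ± 0.07 (SE; limma adjusted p = 0.00318), and kept its call in each of 12 fits that left out 1 library. FOSL1, another AP-1 subunit, measured 4877, 4822 and 4541 against 5741, 5888 and 5863, a log2 rise of 0.30 (limma adjusted p = 0.0107). In TOV21G FOSL1 rose to a similar extent, from 2592, 2399.8 and 2403 to 2931, 3212 and 2777 (log2 0.27; limma adjusted p = 0.0501). Its responses in the lines differed by -0.03 on the log2 scale (limma adjusted p = 0.890). The survival gene MCL1 rose by 0.19 on the log2 scale (limma adjusted p = 0.0394) and CCN2, a secreted matrix protein and YAP target, fell by 0.31 on the log2 scale (limma adjusted p = 0.0424). FOSL1 lost its call in 2 of the 12 fits without 1 library, MCL1 in 7 and CCN2 in 9, with adjusted p-values up to 0.0573, 0.170 and 0.154. KLF2 had the largest change of the list in this line, with 110.1, 124 and 99.96 against 175, 174 and 159.6, but was not called (log2 0.61; limma adjusted p = 0.170).

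In TOV21G, limma called 2 of the 39, both higher, against 0.409% of all tested genes, and the list's median log2 fold change was -0.06. This count and its direction were not stable. With edgeR 3 were called higher and 2 lower (0.647% of all tested genes called), and with DESeq2 3 and 4 (0.851%). Without ascites replicate 2 limma called 1 higher and 4 lower. Without both libraries that stand apart it called 1 higher and 2 lower, and with the line fitted alone or with a replicate block it called 0. MAFF, a small MAF protein that pairs with bZIP factors, measured 432, 441 and 387 in controls and 586, 556 and 545 after ascites. It rose by 0.42 on the log2 scale (limma adjusted p = 0.0260), and its level in CAOV3 went from 311, 364 and 342 to 404, 429 and 422 (log2 0.30; limma adjusted p = 0.0588). PHLDA1 rose by 0.21 in TOV21G on the log2 scale (limma adjusted p = 0.0423) and lost this call in all 12 fits without 1 library, with adjusted p-values up to 0.109. The MAFF call was lost in 5 of them, up to 0.116 without control replicate 3. Without both libraries that stand apart, neither MAFF nor PHLDA1 was called. EGR2, a paralog of EGR1, had the largest change of the list (log2 0.62; limma adjusted p = 0.685), at no more than 10.6 normalised counts.

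Limma called the difference between the lines for JUNB, IER5L and GADD45B, against 0.545% of all tested genes, each with the smaller or opposite value in TOV21G. JUNB measured 2476, 2187 and 2400.1 in TOV21G controls and 2254, 2409.7 and 2045 after ascites, and differed from its CAOV3 response by a log2 value of -0.54 (limma adjusted p = 0.0269). IER5L, a relative of IER2, measured 509.6, 515 and 460.2 against 610.4, 587 and 571 in CAOV3. In TOV21G it measured 3009, 2562 and 2702 against 2151, 2481 and 2067, so its groups separated in opposite directions, as those of IER2 did (log2 difference -0.56; limma adjusted p = 0.0370). GADD45B, a stress-response gene, measured 1496, 1421 and 1462 against 1782, 1674 and 1796 in CAOV3. Its TOV21G values were 94.3, 83.9 and 96.9 against 81.2, 72.6 and 65.3 (log2 difference -0.59; limma adjusted p = 0.0482). These calls were lost in 9, 10 and 10 of the 12 fits without 1 library, with adjusted p-values up to 0.0939, 0.115 and 0.147, in that order of genes. Without the TOV21G libraries that stand apart, limma called 1 gene of the list higher and 4 lower for the difference, and GADD45B lost its call.

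Upstream of the 10 genes, 21 SRF partners, CREB and ETS factors and MAP kinases were tested. In CAOV3, limma called 3 ETS-family genes higher and 0 genes lower, against 1.73% of all tested genes. Without the TOV21G libraries that stand apart it called 4 higher and 1 lower. In TOV21G limma called 0 of the 21, against 0.409% of all tested genes, and 4 had an unadjusted p under 0.05, against 9.17%. With edgeR, with DESeq2 and with TMM scaling 1 was called higher there. Over all tested genes edgeR called 0.647% and DESeq2 0.851% in TOV21G. ETS1 measured 3169, 3182 and 3145 in CAOV3 controls and 3875, 3693 and 3762 after ascites, a log2 rise of 0.25 (limma adjusted p = 0.00391) that was called in all 12 fits without 1 library. In TOV21G it measured 4003, 4291 and 4045 against 4709, 4867 and 4551 (log2 0.20; limma adjusted p = 0.0519). ETS2 rose by 0.21 in CAOV3 on the log2 scale (limma adjusted p = 0.0363), and its TOV21G response differed by -0.35 on the log2 scale (limma adjusted p = 0.0304). ETS2 was the only one of the 21 that limma called for the difference, against 0.545% of all tested genes. Without the TOV21G libraries that stand apart 2 were called, both lower. ELK3, a partner of SRF, rose by 0.16 in CAOV3 on the log2 scale (limma adjusted p = 0.0421). The ETS2 calls were lost in 8 fits without 1 library in CAOV3 and in 10 for the difference, and the ELK3 call in 7, with adjusted p-values up to 0.154, 0.0965 and 0.156.

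**Figure D5:**
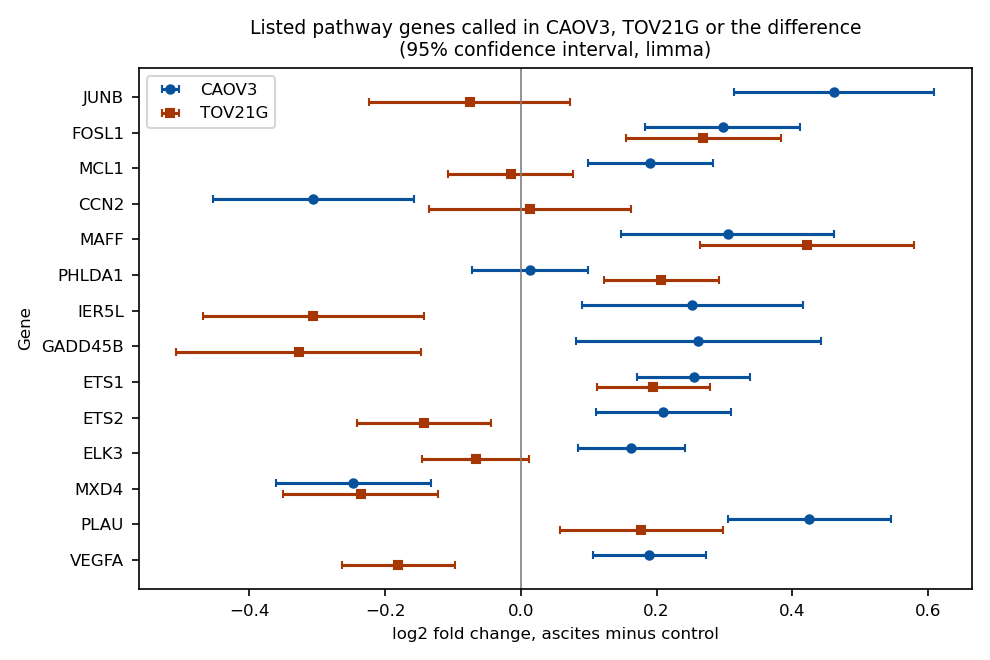
Log2 fold change after ascites in CAOV3 (circles) and TOV21G (squares) with 95% confidence intervals from limma, for the 14 genes of the pathway lists called in either line or in the difference. JUNB, ETS1, FOSL1 and PLAU rose in CAOV3, and the estimates of ETS1, FOSL1 and PLAU are also above 0 in TOV21G. IER5L, GADD45B, ETS2 and VEGFA have estimates on opposite sides of 0 in the lines. The same holds for JUNB, ELK3, MCL1 and CCN2, whose TOV21G intervals include 0.

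Of the dimer partners and cofactors of AP-1, MYC and EGR1, 18 of 19 were tested, and BATF was not analysed here. MXD4, which competes with MYC for MAX, was the only one called by limma, against 1.73% of all tested genes in CAOV3. It fell by 0.25 in CAOV3 on the log2 scale (limma adjusted p = 0.0329). It measured 998, 973 and 933 in controls and 794, 799.5 and 854 after ascites, and 1691, 1502 and 1537 against 1292, 1365 and 1356 in TOV21G (log2 -0.24; limma adjusted p = 0.105). The CAOV3 call was lost in 7 fits without 1 library, with adjusted p-values up to 0.129. The largest changes of the list, neither of them called, were those of BATF3 in CAOV3 (log2 0.67; limma adjusted p = 0.309) and of MAF in TOV21G (log2 -0.62; limma adjusted p = 0.606). None of the 9 factors that bind or degrade AU-rich mRNAs was called by limma, edgeR or DESeq2 in either line or in the difference. Over all tested genes these methods called from 0.409% (limma, TOV21G) to 2.9% (edgeR, CAOV3), so a count of 0 does not set this list apart. ZFP36, the decay factor that is itself an immediate early gene, had the largest value in CAOV3 (log2 0.24; limma adjusted p = 0.497), and TIA1 had the largest in TOV21G (log2 0.14; limma adjusted p = 0.584). Unadjusted, 1 of the 9 passed 0.05 in each line and 1 in the difference. The shares of all tested genes that did so were 12.9% (CAOV3), 9.17% (TOV21G) and 11.9% (difference), so these counts are near the background.

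Of 20 textbook targets of MYC, mostly nucleolar and ribosome assembly genes, limma called 0 in either line. Over all tested genes it called 1.73% in CAOV3 and 0.409% in TOV21G. The unadjusted p was under 0.05 for 7 in CAOV3 and 2 in TOV21G, against 12.9% and 9.17% of all tested genes. In CAOV3, edgeR, DESeq2 and limma with TMM scaling each called 1 higher, against 2.9% of all tested genes with edgeR and 2.88% with DESeq2. The line fitted alone gave 2, and limma without the TOV21G libraries that stand apart called 4 higher. No share of all tested genes is given for these settings or for TMM scaling here, so these counts have no background to be set against. In CAOV3, 19 of the 20 had positive log2 fold changes with a median of 0.11. For 13 of them every ascites library exceeded every control, against 11.4% of all tested genes. The list too was chosen with earlier results of these data known, so this is a description. NOP16, a nucleolar protein, had the largest, with 1997, 1957 and 2018 against 2315, 2277 and 2315 (log2 0.21; limma adjusted p = 0.170). In TOV21G the median was -0.02, 8 of the 20 were positive, and no gene was higher in all ascites libraries than in all controls. EIF4A1, a translation initiation factor, had the largest change there (log2 0.34; limma adjusted p = 0.507). In the control groups, limma called 18 of the 20 lower in TOV21G and 1 higher, against 41.4% and 40.8% of all tested genes, although MYC itself was higher there. The median difference was -0.86, against -0.02 over all tested genes.

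Of 19 textbook targets of AP-1 and EGR1, 17 were tested, and MMP3 and MMP9 were not analysed here. Limma called 2 higher in CAOV3, against 1.73% of all tested genes, and 3 higher without the TOV21G libraries that stand apart. In CAOV3 edgeR and DESeq2 each called 3 higher and 1 lower, against 2.9% and 2.88% of all tested genes. Limma called 0 in TOV21G, against 0.409%, and 7 had an unadjusted p under 0.05 there, against 9.17%. In TOV21G edgeR called 3 higher, against 0.647% of all tested genes, and DESeq2 called 2 higher and 2 lower, against 0.851%. PLAU, the urokinase protease, measured 602, 588 and 552 in CAOV3 controls and 747, 799.5 and 793 after ascites. It rose by 0.43 on the log2 scale (limma adjusted p = 0.00128) and kept its call in all 12 fits without 1 library. In TOV21G PLAU measured 11813, 10640 and 10875 against 12428.5, 13431 and 11849, higher without overlap but not called (log2 0.18; limma adjusted p = 0.327). VEGFA, the angiogenic growth factor, rose by 0.19 in CAOV3 on the log2 scale (limma adjusted p = 0.0252), from 992, 949 and 1024 to 1129, 1109 and 1141. In TOV21G it measured 6014, 5943 and 5963 in controls and 5111, 5466 and 5242 after ascites. All TOV21G ascites libraries were thus lower, and the difference between the lines was called (log2 -0.37; limma adjusted p = 0.0093), also in all 12 fits without 1 library. The VEGFA call in CAOV3 was lost in 6 of those fits, with adjusted p-values up to 0.0995. VEGFA was the only one of the 17 that limma called for the difference, against 0.545% of all tested genes. Without the TOV21G libraries that stand apart 2 were called, both lower. The cytokine CXCL8 had the largest change of the list in TOV21G, from 178, 166 and 175 to 256, 303 and 319, and was not called (log2 0.75; limma adjusted p = 0.150). IL6 was at 0 in all CAOV3 controls and at 2.19, 0 and 1.02 after ascites, which is too low to compare. In TOV21G this cytokine measured 572, 505 and 495 in controls and 827, 839 and 855 after ascites. The TOV21G groups did not overlap, but limma did not call IL6 (log2 0.68, interval 0.00 to 1.36; adjusted p = 0.545), with an error taken from both lines.

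Genes with the pattern most like a member were ranked by Pearson's r of the log2 values after each line's mean had been subtracted, over the 12 libraries, which share library and scaling effects. For FOS these were E2F6 (r = 0.957), CXCL3 (0.953) and RPL17 (0.917). For EGR1 they were TNFAIP2 (0.931), SQSTM1 (0.917) and FUCA1 (0.913). JUN was most like ANXA3 (0.957), SBNO2 (0.927) and EFHD2 (0.923). MYC was most like NARS2 (0.942), MRPL45 (0.927) and PCNP (0.926). These are the highest values among 17616 tested genes and are given as a description.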

How the data were processed

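Per the labels, RNA was measured in 12 libraries, 3 in each of 4 groups. The authors deposited normalised read counts (a signal that is never negative) for 19251 genes, and the submitters' processing notes name Trim Galore, cutadapt, STAR, HTSeq and DESeq, while the build, annotation and strand setting are not given in the sources used here. Dividing by the smallest step of a library turned 100% of its values into whole reads (tolerance 0.01 reads), which gave back the reads used for edgeR and DESeq2 and showed the values to be reads divided by median-of-ratios size factors. Totals were 26697609 to 34491304 reads per library, and counts under about 30 carry large sampling error.

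The main test was limma 3.58.1 (lmFit, eBayes with trend) in R 4.3.3 on log2 of the value plus 1, with a mean for each group over all 12 libraries. Genes with a value of at least 10 in at least 3 libraries were tested (17616, including all 10 members). P-values are two-sided, Benjamini-Hochberg adjusted within each comparison, and called under 0.05. Fold changes on this scale understate those of low genes. Alternatives were other pseudocounts, no filter, edgeR 4.0.16, DESeq2 1.42.0, TMM scaling, each line fitted alone, a replicate block, removal of a length and GC trend, and leaving out libraries. The script was tested on simulated data. The members and lists were chosen with earlier results of these data known. From each list the text names genes called in an ascites comparison or in the difference, at most 4 per comparison by lowest p, plus the one with the largest change in each line. Positions and lengths come from GENCODE release 29 (GRCh38), matched by identifier.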

Additional observations from a re-analysis of the deposited data

Results flagged for a closer look

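These results stood out because the response to ascites differed between the lines. IER2 was higher than its controls in all 3 CAOV3 ascites libraries and lower in all 3 TOV21G ascites libraries, a log2 difference of -0.37 (TOV21G minus CAOV3), which limma did not call (adjusted p = 0.0975). The limma interaction term was called for JUNB (log2 difference -0.54, adjusted p = 0.0269), IER5L (-0.56, adjusted p = 0.0370), GADD45B (-0.59, adjusted p = 0.0482), ETS2 (-0.35, adjusted p = 0.0304) and VEGFA (-0.37, adjusted p = 0.0093). For all 6 genes the CAOV3 ascites libraries lay above the controls, and the TOV21G ascites libraries were lower on average.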

How the results depend on the processing

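The untreated lines differed at all 10 genes in every setting run. In CAOV3 the number of genes called after ascites was 0 in all settings but 1: with TOV21G control replicate 1 and ascites replicate 2 both left out it was 2 (JUN and IER3). In TOV21G it was 1 (IER2) with edgeR, with DESeq2 and with both libraries left out, and 0 to 1 over the fits that left out 1 library, the call coming without ascites replicate 2. For the difference between the lines it was 2 (EGR1 and IER2) with edgeR, DESeq2 and TMM scaling, and 1 (IER2) with the length and GC trend removed and with both libraries left out. It was 0 to 1 over the fits that left out 1 library. The limma adjusted p of the EGR1 difference was 0.0548 to 0.234 and that of IER2 0.0146 to 0.231 over those fits.

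In the settings that kept all libraries or left out both, signs turned at values near 0 in TOV21G. MYC had log2 fold changes of 0.0143 with edgeR, 0.0154 with TMM scaling and 0.00043 with the length and GC trend removed. KLF4 had 0.0554, 0.0311, 0.0226, 0.0171 and 0.0426 with edgeR, DESeq2, TMM scaling, the trend removed and both libraries left out. KLF6 had 0.0229 with edgeR, 0.0235 with TMM scaling and 0.0086 with both left out. Leaving out 1 library turned FOSB in CAOV3 (-0.142 to 0.0771), and in TOV21G JUN (-0.00019 to 0.0934), IER3 (-0.0395 to 0.0757), ATF3 (-0.0559 to 0.260), MYC (-0.0788 to 0.0627), KLF4 (-0.121 to 0.217) and KLF6 (-0.0444 to 0.0388). It also turned the difference for ATF3 (-0.223 to 0.0928) and KLF4 (-0.245 to 0.0932). The cause was not tested.

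Deviations of same-numbered libraries correlated at r = -0.02, 0.02 and 0.02 in CAOV3 and at -0.11, -0.33 and 0.02 in TOV21G. Unlike-numbered pairs ran from -0.05 to 0.04 in CAOV3 and from -0.28 to 0.35 in TOV21G. With 3 libraries a group, these values show no sign of pairing by number but cannot exclude a shared batch. With a replicate block limma called 0 of the 10 genes in CAOV3, 0 in TOV21G, 0 for the difference and 10 between the controls. Of the called pathway genes, JUNB, ETS1 and PLAU in CAOV3 kept their calls under the block (adjusted p = 0.0465 for JUNB and 0.0410 for ETS1). FOS, FOSB and ATF3 in TOV21G rest on few reads, which limits what could be detected there.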
